A study of Rattus norvegicus with 30 samples.

Results

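The genes of the rat major histocompatibility complex (MHC), named RT1, and the genes that load and regulate MHC molecules were followed in neonatal rat lung. They were chosen by name: the 31 genes of the deposited table whose symbol begins with RT1-, and B2m, Cd74, Ciita, Nlrc5, Tap1, Tap2 and Tapbp, which gives 38 of 35224 genes. Of the RT1 genes, 21 were taken as class I and 10 as class II from their symbols. The lungs come from rats used to model bronchopulmonary dysplasia, a lung disease of preterm infants given oxygen, and mRNA was sequenced from whole lung without the trachea. The 30 libraries form 10 groups of 3. Newborn rats of a strain that the labels do not give were kept at 85% or at 21% oxygen, and lungs were taken at postnatal days 1, 3, 7, 10 and 14. Dams were exchanged between the arms each day, and no genotype or further agent is labelled. The protocol states 12 rats in each arm, whereas 15 libraries belong to either arm. Nothing in the labels ties libraries of a group to separate animals, so p-values measure only the spread among these libraries, and that spread may be technical.

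Class I molecules are made in nearly all nucleated cells and show peptides from inside the cell to CD8 T cells. Each pairs a polymorphic heavy chain with the light chain B2m, the transporter subunits Tap1 and Tap2 bring the peptides, tapasin (Tapbp) helps to load them, and Nlrc5 switches class I genes on. Class II molecules pair an alpha and a beta chain, travel with the invariant chain Cd74, are loaded with the help of RT1-DM, which RT1-DO restrains, and depend on the transactivator Ciita. They are made by dendritic cells, B cells and macrophages, and in rodent lung also by type 2 alveolar epithelial cells. The rat RT1-A genes encode classical class I heavy chains, RT1-B and RT1-D correspond to human DQ and DR, and the RT1-CE, RT1-M, RT1-N, RT1-S and RT1-T24 genes are mostly nonclassical class I genes. Rat strains differ in the alleles and in the number of RT1 genes.

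Promoter stretches are shown for a pair of regulatory motifs known from MHC genes. RefSeq promoters of the rat assembly GRCr8, 250 bases before to 50 bases after each gene start, were at hand for 32 of the 38 genes. Stretches around the match are printed 5′ to 3′ on the strand of the gene. The first set is shown for the Y box, the letters CTGATTGG bound by NF-Y in the class II promoter module, here in capitals.
RT1-Da (chr20:4515293-4515410, plus strand): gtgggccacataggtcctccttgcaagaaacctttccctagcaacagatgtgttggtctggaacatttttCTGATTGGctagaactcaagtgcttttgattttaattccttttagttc
RT1-Ba (chr20:4576941-4577058, plus strand): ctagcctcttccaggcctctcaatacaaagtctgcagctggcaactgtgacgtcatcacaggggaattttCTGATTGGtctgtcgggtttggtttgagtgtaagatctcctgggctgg
RT1-Db1 (chr20:4560198-4560315, minus strand): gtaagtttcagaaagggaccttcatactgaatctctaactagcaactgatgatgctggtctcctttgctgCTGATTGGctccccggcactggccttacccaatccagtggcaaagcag
RT1-Bb (chr20:4604135-4604252, minus strand): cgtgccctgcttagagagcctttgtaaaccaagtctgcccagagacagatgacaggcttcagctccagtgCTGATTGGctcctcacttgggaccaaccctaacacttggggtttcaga
The second set is shown for the interferon response element, the letters GAAA followed, after any 2 bases, by GAAA again, searched on both strands, so that capitals starting with TTTC mark a match on the opposite strand. In Tapbp 2 overlapping matches are joined. The RT1-S3 promoter also holds the Y box letters, which are not marked here.
B2m (chr3:129549110-129549229, plus strand): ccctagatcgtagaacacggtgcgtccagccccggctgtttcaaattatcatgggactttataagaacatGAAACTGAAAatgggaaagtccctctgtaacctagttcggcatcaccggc
Tap1 (chr20:4668615-4668734, minus strand): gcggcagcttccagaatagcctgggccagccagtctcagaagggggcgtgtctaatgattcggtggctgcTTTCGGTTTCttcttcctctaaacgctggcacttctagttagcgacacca
Tapbp (chr20:4967854-4967973, minus strand): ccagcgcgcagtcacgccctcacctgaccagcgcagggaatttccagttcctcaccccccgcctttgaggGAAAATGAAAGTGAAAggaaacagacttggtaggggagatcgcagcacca
RT1-S3 (chr20:2675346-2675465, plus strand): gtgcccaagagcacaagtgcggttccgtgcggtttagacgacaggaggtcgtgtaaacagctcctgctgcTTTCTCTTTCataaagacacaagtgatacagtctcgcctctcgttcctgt
The Y box letters, searched on both strands, stood in 7 of 9 class II promoters and in 6 of 18 class I promoters, against 3.55% of all 27457 promoters, and the difference between the classes was not tested. The class I genes with a match were RT1-M3-1, RT1-S3, RT1-CE5, RT1-CE4, RT1-A2 and RT1-A1. The class II genes with a match were RT1-Da, RT1-Db1, RT1-Db2, RT1-Ba, RT1-Bb, RT1-DOa and RT1-Ha. The interferon element letters stood in the promoters of B2m, Tap1, Tap2, Tapbp, RT1-S2, RT1-N3 and RT1-S3, thus in 3 of 18 class I heavy chain and 0 of 9 class II promoters, against 3.77% of all promoters. A match is a description of these letters and not a measured binding site. The deposited coordinates printed with the values come from a build not given in the sources used here.

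Total counts per library ranged from 14951463 to 18074590, with a median of 16069831, and the 38 genes took 0.117% to 0.264% of them. The share of mitochondrially encoded genes was 2.65% to 19.1%, and 4 libraries were above 6%: replicates 1 and 3 of the 85%-labelled day 1 group, replicate 3 of the 85%-labelled day 3 group and replicate 3 of the 21%-labelled day 3 group. Marker genes showed lung: the type 2 cell markers summed to 10193 to 51995 CPM (counts-per-million of a library), and no marker of that list was at 0. A gene that answers to oxygen ran counter to the treatment labels. Cdkn1a, a p53-induced inhibitor of cell division that rises in hyperoxic rodent lung, stood at 25.3 to 34.0 CPM in the 85%-labelled and 382 to 461 CPM in the 21%-labelled libraries at day 14. Groups are therefore called 85%-labelled and 21%-labelled, and every direction rests on the labels as they stand. All differences are log2 values, 85%-labelled minus 21%-labelled. A gene is called at an adjusted p under 0.05 by edgeR's quasi-likelihood test, with Benjamini-Hochberg adjustment over the 17571 genes tested, and a size of at least 0.5. Levels in single libraries are CPM after TMM scaling. Where groups are said not to overlap, the share of all genes without overlap was not computed. In whole-lung RNA, fewer cells of a type and less RNA per cell cannot be told apart.

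Of the 38 genes, 33 had enough counts to be tested. RT1-M2, RT1-M4, RT1-M5, RT1-Db2 and RT1-Ha stayed below 1 CPM in all 30 libraries. Per kilobase of deposited gene length, the mean level over 30 libraries was 344 CPM for Cd74 and 297 CPM for B2m, and the next were RT1-Da at 43.8, RT1-T24-4 at 43.1 and RT1-S3 at 38.2 CPM per kilobase. The next class I heavy chain genes were RT1-A2 at 22.1, RT1-CE5 at 12.9 and RT1-CE4 at 10.5 CPM per kilobase, and RT1-A1 stood at 4.27 CPM per kilobase. Tapbp reached 26.6 and Tap1 11.1, whereas Tap2 stood at 3.35, Ciita at 1.42 and Nlrc5 at 0.205 CPM per kilobase. Of the 4 highest class II chains RT1-Ba followed RT1-Da at 21.4, RT1-Db1 stood at 14.5 and RT1-Bb at 7.67 CPM per kilobase. The RT1-DM and RT1-DO chains were far below these 4 class II chains, with RT1-DMb at 1.29, RT1-DOb at 0.504, RT1-DOa at 0.375 and RT1-DMa at 0.306 CPM per kilobase. The order of all 38 genes was the same by the deposited FPKM, which rest on the same counts and lengths and are no separate check.

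The RT1 genes, Tap1, Tap2 and Tapbp lie on chromosome 20, and some of their deposited loci overlap on 1 strand. RT1-A1 overlaps RT1-A2, RT1-M6-1 overlaps RT1-M6-2, and RT1-CE1, RT1-CE3, RT1-CE4, RT1-CE5 and RT1-CE7 form a chain of overlaps. The authors' treatment of reads that match several close copies, a point not given in the sources used here, matters for these genes, so the separate values of RT1 genes are uncertain.

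B2m (ENSRNOG00000017123, chromosome 3, 114087287 to 114093309), the class I light chain, was high in every library. Its levels in the 85%-labelled arm were 494, 496 and 761 at day 1, 603, 593 and 708 at day 3, 507, 542 and 360.3 at day 7, 438, 621 and 630.5 at day 10 and 486, 432 and 423 at day 14 CPM. In the 21%-labelled arm they were 368, 322 and 367 at day 1, 539, 866 and 758 at day 3, 403, 425 and 421 at day 7, 564, 907 and 499 at day 10 and 603, 500.0 and 648 at day 14 CPM. The day 1 groups did not overlap and the 85%-labelled libraries were the higher ones, whereas the 21%-labelled libraries were the higher ones at day 14, where the groups did not overlap either. Tap1, a subunit of the peptide transporter, stood at 29.3, 39.4 and 25.2 at day 1, 36.8, 47.7 and 39.3 at day 3, 41.9, 39.2 and 32.4 at day 7, 40.6, 48.6 and 59.7 at day 10 and 50.5, 44.2 and 37.6 at day 14 CPM in the 85%-labelled arm. The 21%-labelled libraries had 23.5, 34.1 and 36.6 at day 1, 58.2, 85.8 and 64.7 at day 3, 46.9, 30.0 and 30.5 at day 7, 51.3, 72.6 and 56.8 at day 10 and 61.3, 51.5 and 60.8 at day 14 CPM of Tap1. Its highest group mean was that of the 21%-labelled day 3 group, which did not overlap the 85%-labelled one (-0.75, SE 0.21, adjusted p = 0.183 by edgeR's quasi-likelihood test).

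Tap2, the partner of Tap1, was more uneven. It stood at 13.8, 20.1 and 4.39 at day 1, 13.6, 19.4 and 20.9 at day 3, 7.45, 7.61 and 6.43 at day 7, 9.23, 6.69 and 15.4 at day 10 and 7.36, 8.14 and 0.222 at day 14 CPM in the 85%-labelled libraries. It stood at 3.04, 7.01 and 9.03 at day 1, 10.8, 7.22 and 21.4 at day 3, 7.29, 7.63 and 2.91 at day 7, 3.58, 0.226 and 6.12 at day 10 and 4.45, 13.6 and 11.4 at day 14 CPM in the 21%-labelled libraries. In 2 libraries, replicate 3 of the 85%-labelled day 14 group and replicate 2 of the 21%-labelled day 10 group, Tap2 was at 0.222 and 0.226 CPM, while Tap1 in the same libraries stood at 37.6 and 72.6 CPM. Tapbp, by contrast, was the steadiest member, with 26.3, 50.6 and 40.5 at day 1, 53.1, 57.0 and 45.8 at day 3, 54.6, 51.0 and 50.1 at day 7, 55.1, 70.7 and 64.8 at day 10 and 52.9, 50.8 and 54.2 at day 14 CPM in the 85%-labelled arm. In the 21%-labelled arm Tapbp had 50.4, 51.0 and 50.8 at day 1, 54.6, 58.3 and 60.2 at day 3, 53.0, 49.5 and 49.8 at day 7, 60.8, 66.1 and 56.9 at day 10 and 77.1, 62.1 and 64.5 at day 14 CPM. Nlrc5, the class I transactivator, stayed low at 0, 0.798 and 0.586 at day 1, 0.342, 0.405 and 0.542 at day 3, 0.727, 0.444 and 0.541 at day 7, 1.24, 0.446 and 1.87 at day 10 and 1.56, 1.33 and 1.83 at day 14 CPM in the 85%-labelled and at 1.05, 0.558 and 0.811 at day 1, 1.37, 2.88 and 1.35 at day 3, 0.872, 0.601 and 1.86 at day 7, 1.58, 2.10 and 1.09 at day 10 and 2.51, 2.36 and 1.71 at day 14 CPM in the 21%-labelled libraries. At day 3 its groups did not overlap and the 21%-labelled one was higher, at a difference of -2.10 (SE 0.63, adjusted p = 0.221 by edgeR's quasi-likelihood test; DESeq2 gave an adjusted p of 0.0437).

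**Figure D1:**
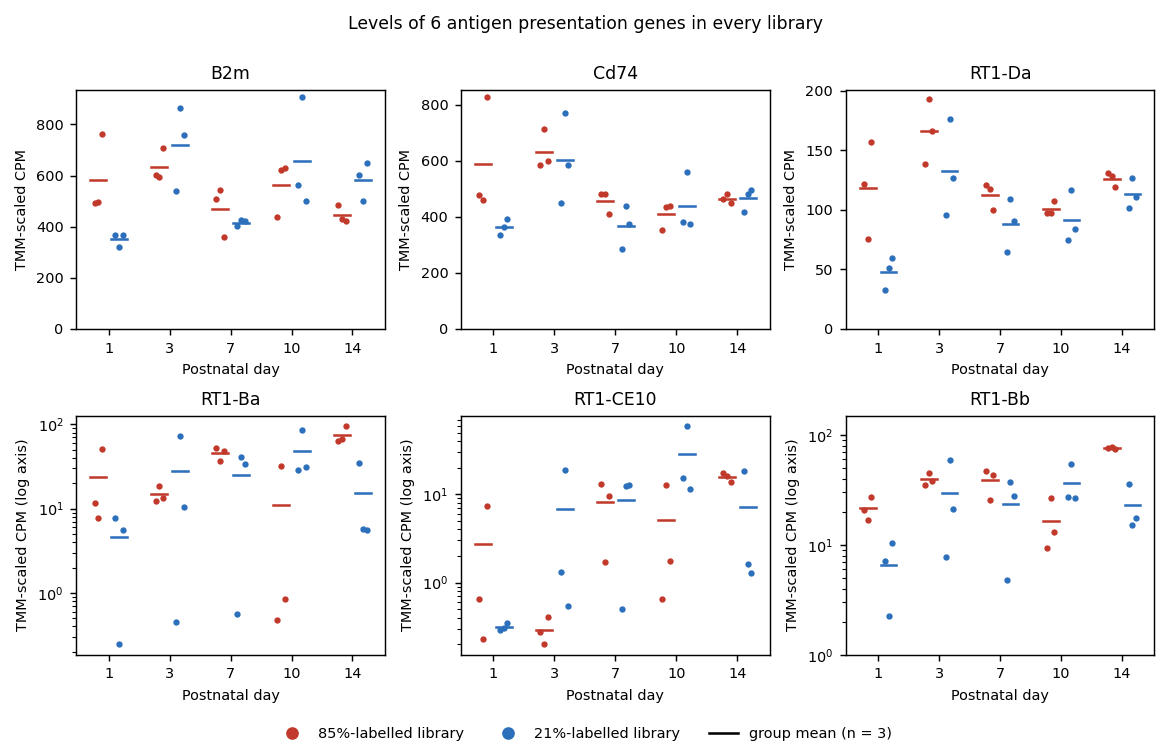
TMM-scaled CPM (y axis) of B2m, Cd74, RT1-Da, RT1-Ba, RT1-CE10 and RT1-Bb against postnatal day (x axis), with a point for each of the 30 libraries and a bar for the mean of the 3 libraries of a group. The 3 lower panels have a log axis. B2m, Cd74 and RT1-Da stay within a few-fold, whereas RT1-Ba falls below 1 CPM in 5 libraries and reaches 94.7 CPM in another.

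RT1-T24-4 (ENSRNOG00000042905, chromosome 20, 3189473 to 3197457) had the highest mean level of the class I heavy chain genes. In the 85%-labelled arm it stood at 32.7, 100.4 and 10.0 at day 1, 106, 120.2 and 126 at day 3, 57.8, 112 and 34.1 at day 7, 114, 109.6 and 154 at day 10 and 58.5, 52.4 and 75.5 at day 14 CPM. In the 21%-labelled arm it stood at 116, 114 and 110.1 at day 1, 120.5, 27.6 and 70.4 at day 3, 69.5, 30.2 and 30.1 at day 7, 44.6, 12.5 and 20.3 at day 10 and 30.1, 23.6 and 35.5 at day 14 CPM. The groups did not overlap at days 1, 10 and 14, and the 85%-labelled one was the lower at day 1 and the higher at days 10 and 14. RT1-S3 (ENSRNOG00000000777, chromosome 20, 3176107 to 3179818), a neighbour on the same strand, had 38.1, 69.2 and 34.9 at day 1, 62.0, 75.6 and 69.3 at day 3, 73.8, 83.1 and 50.6 at day 7, 87.6, 75.0 and 106 at day 10 and 84.1, 80.5 and 76.2 at day 14 CPM in the 85%-labelled arm. The 21%-labelled libraries had 84.0, 87.9 and 82.5 at day 1, 78.2, 69.1 and 72.0 at day 3, 68.0, 56.3 and 55.2 at day 7, 53.3, 41.6 and 36.4 at day 10 and 56.4, 56.4 and 61.1 at day 14 CPM of RT1-S3. The groups did not overlap at days 1, 10 and 14, and the 85%-labelled one was the lower at day 1 and the higher at days 10 and 14. RT1-T24-3 (ENSRNOG00000045924, chromosome 20, 3226313 to 3233694) on the same strand had 14.7, 11.1 and 32.3 at day 1, 12.5, 11.5 and 13.2 at day 3, 10.2, 22.1 and 6.13 at day 7, 15.5, 22.9 and 27.1 at day 10 and 7.07, 9.02 and 11.4 at day 14 CPM in the 85%-labelled libraries. Its 21%-labelled libraries had 15.5, 14.6 and 13.4 at day 1, 14.5, 16.4 and 13.7 at day 3, 7.54, 11.6 and 10.5 at day 7, 6.92, 12.7 and 2.86 at day 10 and 4.32, 4.36 and 6.48 at day 14 CPM. Its groups did not overlap at days 3, 10 and 14, and the 85%-labelled one was the lower at day 3 and the higher at days 10 and 14.

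RT1-A2 (ENSRNOG00000030712, chromosome 20, 5374985 to 5378539), a classical heavy chain gene, stood at 29.7, 25.5 and 26.0 at day 1, 37.1, 38.6 and 38.9 at day 3, 24.0, 55.6 and 17.2 at day 7, 31.5, 51.3 and 60.7 at day 10 and 27.8, 26.2 and 39.5 at day 14 CPM in the 85%-labelled arm. In the 21%-labelled arm it stood at 20.3, 21.8 and 20.9 at day 1, 53.0, 41.8 and 33.003 at day 3, 27.6, 8.96 and 9.71 at day 7, 48.0, 106 and 31.1 at day 10 and 71.3, 37.4 and 47.9 at day 14 CPM. Within the 21%-labelled arm its lowest values were those of replicates 2 and 3 at day 7 and its highest that of replicate 2 at day 10. RT1-A1, which overlaps it, had 0.727, 7.81 and 9.37 at day 1, 6.51, 6.27 and 5.48 at day 3, 13.9, 15.9 and 11.1 at day 7, 9.28, 16.2 and 8.39 at day 10 and 13.7, 14.96 and 22.1 at day 14 CPM and, in the 21%-labelled arm, 5.797, 5.21 and 4.81 at day 1, 7.71, 16.6 and 6.36 at day 3, 8.04, 10.9 and 13.4 at day 7, 13.2, 34.8 and 10.4 at day 10 and 15.8, 13.3 and 21.4 at day 14 CPM. The highest library was the same as for RT1-A2.

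RT1-CE4 had 88.1, 31.7 and 45.7 at day 1, 59.5, 63.6 and 97.5 at day 3, 38.5, 99.3 and 26.2 at day 7, 44.1, 62.7 and 69.1 at day 10 and 39.2, 38.6 and 53.2 at day 14 CPM in the 85%-labelled libraries and 25.9, 20.2 and 16.4 at day 1, 63.9, 60.0 and 93.8 at day 3, 44.4, 34.1 and 39.9 at day 7, 35.7, 52.6 and 22.5 at day 10 and 24.4, 21.8 and 31.8 at day 14 CPM in the 21%-labelled ones. RT1-CE5 had 10.0, 9.12 and 10.3 at day 1, 14.3, 20.4 and 31.3 at day 3, 17.3, 35.9 and 32.2 at day 7, 25.7, 35.3 and 45.5 at day 10 and 16.1, 18.0 and 24.5 at day 14 CPM in the 85%-labelled libraries and 8.37, 3.41 and 5.44 at day 1, 21.3, 32.0 and 22.8 at day 3, 28.1, 17.7 and 16.6 at day 7, 30.2, 53.7 and 23.6 at day 10 and 37.1, 27.5 and 39.1 at day 14 CPM in the 21%-labelled ones. For both genes the lowest group was the 21%-labelled day 1 group. RT1-CE7 (ENSRNOG00000031090, chromosome 20, 4694472 to 4896970) had 3.31, 7.18 and 3.73 at day 1, 5.96, 8.97 and 6.57 at day 3, 12.2, 9.57 and 15.9 at day 7, 10.6, 9.17 and 15.1 at day 10 and 24.7, 21.5 and 25.1 at day 14 CPM in the 85%-labelled libraries and 3.81, 5.15 and 7.12 at day 1, 8.50, 9.48 and 4.87 at day 3, 8.04, 12.7 and 10.9 at day 7, 10.7, 18.9 and 8.75 at day 10 and 12.2, 7.21 and 7.58 at day 14 CPM in the 21%-labelled ones. Its 85%-labelled day 14 libraries were above all others.

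RT1-M3-1, whose mouse counterpart presents formylated peptides, had 13.2, 11.7 and 13.3 at day 1, 16.4, 15.6 and 17.5 at day 3, 9.87, 19.6 and 6.19 at day 7, 13.4, 16.2 and 17.1 at day 10 and 9.82, 11.5 and 12.0 at day 14 CPM in the 85%-labelled libraries and 7.73, 8.62 and 7.24 at day 1, 11.9, 16.9 and 16.8 at day 3, 11.7, 10.3 and 10.4 at day 7, 13.1, 15.9 and 9.73 at day 10 and 14.3, 15.9 and 13.9 at day 14 CPM in the 21%-labelled ones. RT1-N3 had 2.91, 14.5 and 4.03 at day 1, 10.0, 10.3 and 7.38 at day 3, 12.4, 11.7 and 12.8 at day 7, 22.4, 19.2 and 24.3 at day 10 and 8.32, 10.8 and 11.2 at day 14 CPM in the 85%-labelled libraries and 12.9, 12.4 and 10.1 at day 1, 12.8, 12.5 and 10.0 at day 3, 22.2, 13.5 and 15.8 at day 7, 16.997, 16.3 and 15.05 at day 10 and 10.8, 14.2 and 16.2 at day 14 CPM in the 21%-labelled ones. RT1-N3 was lowest in the 2 day 1 libraries with the largest mitochondrial shares. The 8 tested class I genes of lower level, RT1-CE1, RT1-CE3, RT1-CE10, RT1-M6-1, RT1-M6-2, RT1-N2, RT1-S2 and RT1-T24-1, had mean levels from 0.327 CPM for RT1-S2 to 8.32 CPM for RT1-CE10.

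Cd74 (ENSRNOG00000018735, chromosome 18, 56071478 to 56080849), the invariant chain, stood at 477, 461 and 827 at day 1, 585, 713 and 597 at day 3, 481, 483 and 409 at day 7, 354, 433 and 440.0 at day 10 and 462, 481 and 448 at day 14 CPM in the 85%-labelled arm. In the 21%-labelled arm it stood at 336, 364 and 392.34 at day 1, 449, 771 and 583 at day 3, 286, 437 and 374 at day 7, 383, 558 and 375 at day 10 and 419, 482 and 496 at day 14 CPM. The day 14 groups overlapped and their means were close. RT1-Da (ENSRNOG00000032844, chromosome 20, 4127644 to 4132616), the DR-type alpha chain, had 121, 75.6 and 157 at day 1, 139, 193 and 166 at day 3, 120.3, 117 and 100.1 at day 7, 97.3, 96.9 and 107 at day 10 and 131, 129 and 119 at day 14 CPM in the 85%-labelled arm. The 21%-labelled libraries had 32.9, 51.1 and 59.6 at day 1, 95.4, 176 and 126 at day 3, 64.2, 109 and 90.5 at day 7, 74.4, 117 and 83.9 at day 10 and 101, 127 and 111 at day 14 CPM of RT1-Da. The lowest 3 of the 30 libraries were the 21%-labelled day 1 group, and from day 7 to day 14 the groups overlapped.

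The DR-type beta chain RT1-Db1 (ENSRNOG00000033215, chromosome 20, 4087618 to 4097190) had 40.8, 16.98 and 80.8 at day 1, 37.3, 53.7 and 41.5 at day 3, 45.8, 54.6 and 48.0 at day 7, 24.4, 56.6 and 31.6 at day 10 and 64.5, 66.4 and 102 at day 14 CPM in the 85%-labelled libraries. In the 21%-labelled libraries it had 12.1, 8.99 and 9.67 at day 1, 23.4, 100.02 and 33.3 at day 3, 13.4, 49.1 and 45.8 at day 7, 49.1, 104 and 49.6 at day 10 and 67.7, 32.2 and 27.9 at day 14 CPM. Its highest library was replicate 2 of the 21%-labelled day 10 group. RT1-Bb (ENSRNOG00000032708, chromosome 20, 4039413 to 4049711), the DQ-type beta chain, stood at 20.9, 16.7 and 27.1 at day 1, 34.8, 45.0 and 38.1 at day 3, 47.1, 25.4 and 43.2 at day 7, 9.28, 26.9 and 13.2 at day 10 and 75.6, 78.1 and 74.1 at day 14 CPM in the 85%-labelled arm. In the 21%-labelled arm it stood at 7.09, 2.23 and 10.5 at day 1, 7.71, 59.3 and 21.1 at day 3, 4.80, 37.6 and 27.7 at day 7, 27.4, 54.7 and 26.5 at day 10 and 35.9, 15.3 and 17.6 at day 14 CPM. The 3 highest of its 30 values were the 85%-labelled day 14 libraries.

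RT1-Ba (ENSRNOG00000000451, chromosome 20, 4066132 to 4070721), the DQ-type alpha chain and partner of RT1-Bb, was the most uneven member. Its 85%-labelled libraries had 11.6, 7.81 and 51.7 at day 1, 12.5, 18.5 and 13.4 at day 3, 51.9, 36.8 and 48.2 at day 7, 0.473, 32.2 and 0.851 at day 10 and 62.9, 67.5 and 94.7 at day 14 CPM. Its 21%-labelled libraries had 7.85, 0.248 and 5.62 at day 1, 0.457, 73.2 and 10.6 at day 3, 0.561, 41.1 and 34.1 at day 7, 29.1, 84.9 and 30.8 at day 10 and 34.5, 5.76 and 5.56 at day 14 CPM. In 5 libraries of 4 groups RT1-Ba was below 1 CPM while its group mates reached up to 73.2 CPM, and in the 21%-labelled day 3 group the highest library had 160.2 times the level of the lowest. In these 5 libraries RT1-Bb stood at 9.28, 13.2, 2.23, 7.71 and 4.80 CPM and RT1-Da at 97.3, 107, 51.1, 95.4 and 64.2 CPM, in the order replicates 1 and 3 of the 85%-labelled day 10 group and, in the 21%-labelled arm, replicate 2 of day 1, replicate 1 of day 3 and replicate 1 of day 7. RT1-Bb was thus the lowest of its group in 4 of them, and between its group mates in replicate 3 at day 10.

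The nonclassical gene RT1-CE10 (ENSRNOG00000050210, chromosome 20, 154074 to 157861), at the far end of the RT1 genes on the deposited chromosome, had 0.646, 0.228 and 7.32 at day 1, 0.274, 0.202 and 0.406 at day 3, 13.02, 1.71 and 9.67 at day 7, 0.651, 12.8 and 1.76 at day 10 and 17.4, 15.9 and 13.9 at day 14 CPM in the 85%-labelled and 0.293, 0.310 and 0.347 at day 1, 1.31, 18.7 and 0.541 at day 3, 0.498, 12.4 and 12.7 at day 7, 15.2, 58.7 and 11.3 at day 10 and 18.4, 1.64 and 1.28 at day 14 CPM in the 21%-labelled libraries. It was high in some libraries of a group and near 0 in others. In the 5 libraries with RT1-Ba below 1 CPM, RT1-CE10 was at 0.651, 1.76, 0.310, 1.31 and 0.498 CPM, in the same order. RT1-CE10 was itself below 1 CPM in 11 libraries. Among these were all libraries of the 85%-labelled day 3 group, where RT1-Ba stood at 12.5, 18.5 and 13.4 CPM.

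Ciita, the class II transactivator, had 3.80, 4.05 and 4.25 at day 1, 5.55, 6.94 and 4.94 at day 3, 8.24, 7.80 and 9.07 at day 7, 9.99, 6.30 and 8.68 at day 10 and 12.1, 9.97 and 11.6 at day 14 CPM in the 85%-labelled libraries and 9.60, 10.4 and 8.34 at day 1, 6.96, 8.56 and 4.26 at day 3, 5.73, 8.96 and 8.26 at day 7, 8.09, 4.64 and 5.61 at day 10 and 8.83, 13.03 and 10.0 at day 14 CPM in the 21%-labelled ones. The 3 lowest of the 30 values were those of the 85%-labelled day 1 group. RT1-DMb reached 35.1 CPM in replicate 1 of the 85%-labelled day 3 group, 12.4 CPM in replicate 2 of the 21%-labelled day 3 group and 5.99 CPM in replicate 3 of the 21%-labelled day 14 group, and was at or below 3.59 CPM in the other libraries. RT1-DMa was highest in replicate 3 of the 85%-labelled day 1 group, at 5.71 CPM, and at most 1.15 CPM elsewhere. RT1-DOa ranged from 0.0620 to 1.99 CPM and RT1-DOb from 0.0586 to 1.77 CPM.

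**Figure D2:**
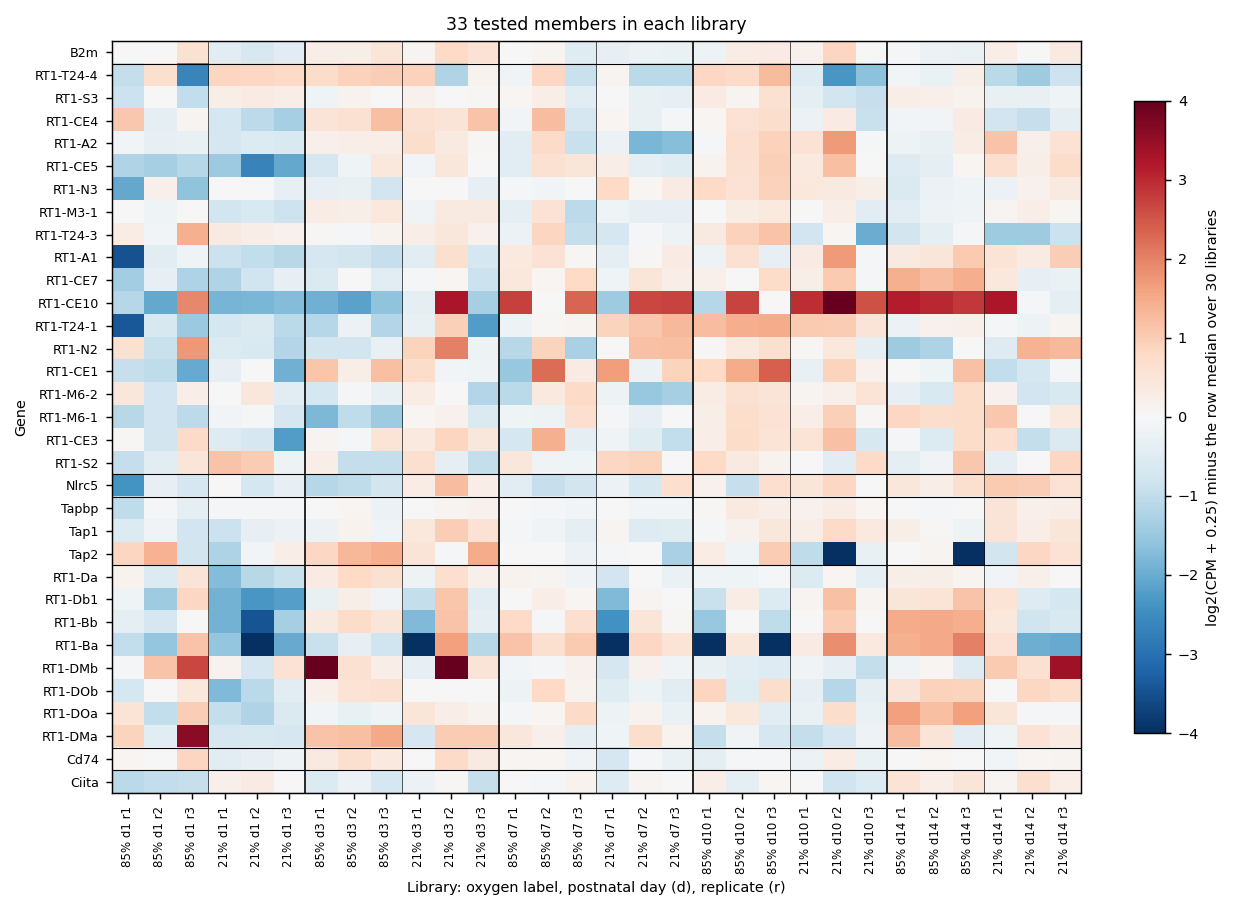
The 33 tested members (rows, grouped by role and ordered by level) in each of the 30 libraries (columns, by day, oxygen label and replicate). Colour is log2(CPM + 0.25) minus the median of the row, and saturates at 4 on either side. Rows such as RT1-Ba, RT1-CE10 and RT1-DMb change colour between replicates of a group, while B2m, Tapbp and Cd74 stay near their median.

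The unevenness was measured as the SD of log2(CPM + 0.25) within groups, pooled over the 10 groups, which has no test beside it. Of 10765 tested genes with a mean log2 CPM of at least 3, the median SD was 0.23. The 14 RT1 genes of that level had a median SD of 0.53, ranging from 0.25 for RT1-S3 to 2.02 for RT1-Ba. Of these 14, 8 lay above the SD of 90% of genes and 5 above that of 95%. This sets them against genes of all levels from log2 CPM 3 upward, whereas the spread depended on level. The SD that 90% of genes stayed below was 0.66 from log2 CPM 3 to 4 and 0.43 from 5 to 6. Among genes of their own level, RT1-T24-3 (0.55) lay below the 90% mark, and RT1-A1 (0.74) below the 95% mark of 0.80. RT1-Ba lay above 99.9% of the genes. RT1-Bb had an SD of 0.87, RT1-T24-4 of 0.78, RT1-A1 of 0.74 and RT1-Db1 of 0.71. The 4 other members of that level, B2m, Cd74, Tap1 and Tapbp, had SDs of 0.18 to 0.27. The 73 other genes of that level that lie between the RT1 genes on chromosome 20, from 154074 to 5421098, had a median SD of 0.23 and a highest SD of 0.66.

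Most RT1 genes of that level were thus more uneven than B2m and Cd74 and than the typical neighbour on the chromosome. B2m and Cd74 had higher levels than any RT1 gene, at a mean log2 CPM of 9.04 and 8.86, and the part of level in this contrast was not tested. Without the 4 libraries above 6% mitochondrial counts, the SD was 2.19 for RT1-Ba, 0.96 for RT1-Bb, 0.65 for RT1-T24-4 and 0.68 for RT1-Db1. It was 0.48 for RT1-A1 and 0.21 for RT1-N3, against 0.43 for RT1-N3 with all libraries. Among members of lower level, RT1-CE10 had an SD of 1.66, RT1-DMb of 1.46 and Tap2 of 1.17. The part of strain, allele or shared reads in this spread was not tested.

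**Figure D3:**
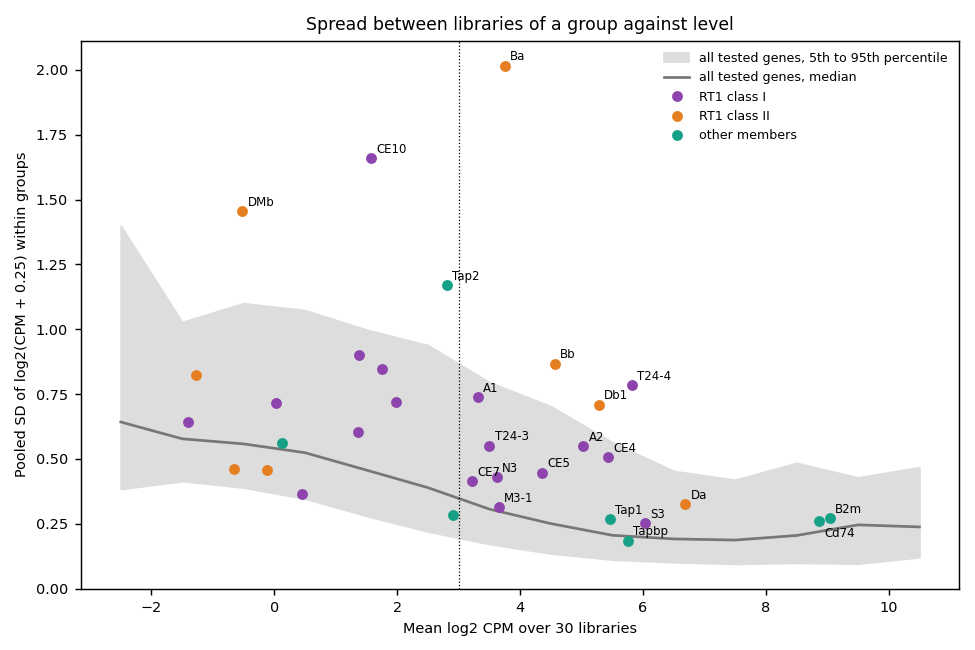
Pooled within-group SD of log2(CPM + 0.25) (y axis) against mean log2 CPM over 30 libraries (x axis). The grey band spans the 5th to 95th percentile of all tested genes at that level, the line is their median, points are members, labelled without RT1- where their level is at least 3 or their SD above 1, and the dotted line marks a log2 CPM of 3. RT1-Ba at 2.02 lies far above the band, while B2m, Cd74, Tap1 and Tapbp lie within it.

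At day 1, the first day of exposure, most tested class II chains were called higher and Ciita lower in the 85%-labelled lungs. These calls did not hold with mitochondrial share as a covariate. Of 33 members 11 were called higher and 2 lower. The total share called was close to the 41.4% of all genes. By direction it was not, since 20.6% of all genes were called higher and 20.8% lower. Of the 8 tested class II chains 6 were higher. Among these 6, RT1-DMa, RT1-DOa and RT1-DOb were near 0 in the 21%-labelled libraries, at 0.0579 to 0.0620, 0.0620 to 0.232 and 0.0586 to 0.521 CPM. RT1-Da had a difference of 1.30 (SE 0.25, adjusted p = 0.000731), RT1-Db1 of 2.17 (SE 0.56) and RT1-Bb of 1.70 (SE 0.65). Cd74 was higher by 0.69 (SE 0.21) and B2m by 0.73 (SE 0.21). Lower were Ciita by -1.22 (SE 0.25, adjusted p = 0.000963) and RT1-S3 by -0.84 (SE 0.20, adjusted p = 0.00230, edgeR's quasi-likelihood test). The other calls, all higher, were RT1-CE4, RT1-M3-1, RT1-N2, RT1-DOa, RT1-DOb and RT1-DMa. The groups of RT1-N2, RT1-DOa and RT1-DOb overlapped.

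These day 1 calls moved with the mitochondrial share, which was 19.1%, 5.32% and 11.5% in the 85%-labelled libraries. With that share as a covariate, 0 of 33 members were called, and of all 17571 genes 28 in place of 7278. Without the libraries above 6%, 0 of 33 members and 236 of all genes were called, so that nearly all genes lost their calls with the members. That fit leaves 1 library in the 85%-labelled day 1 group, which is assumed to vary like the other groups. Replicate 3 of the 85%-labelled group had 157 CPM of RT1-Da, 827 CPM of Cd74 and 5.71 CPM of RT1-DMa. Without that library 5 members and 5896 of all genes were called. In that fit the difference was 0.37 for Cd74, 0.49 for B2m and 2.46 for RT1-DMa, none of these 3 called. RT1-Da, RT1-Db1, RT1-S3 and Ciita kept their calls whichever 1 library was left out. RT1-CE4 lost its call without replicate 1 of the 85%-labelled group (0.90), and RT1-DOa without replicate 3 (1.62). RT1-Bb, RT1-N2, RT1-M3-1 and RT1-DOb each lost their calls without any 1 of at least 4 libraries. Neutrophil markers moved in the same libraries, with a sum of 206 to 563 CPM in the 85%-labelled and 106 to 114 CPM in the 21%-labelled libraries and 5 of 9 markers higher. Markers of T cells (6 of 10) and B cells (5 of 8) were higher too, and 3 of 15 macrophage markers were higher and 4 lower. Of 11 tested dendritic cell markers 1 was higher and 2 were lower, with sums of 57.4, 133 and 83.3 CPM in the 85%-labelled against 146, 154 and 176 CPM in the 21%-labelled libraries. Type 2 cell markers, with 2 of 9 higher and 3 lower, summed to 51995, 25879 and 44186 CPM against 27875, 24327 and 29356 CPM, and were highest in the libraries with the largest mitochondrial shares. Their part in the result was not tested.

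At days 3 and 7, 0 members were called by edgeR's quasi-likelihood test, against 0.393% and 0.0854% of all genes. Of all genes 0.313% were higher and 0.0797% lower at day 3, and 0.0341% were higher and 0.0512% lower at day 7. At day 3, 5 members had an unadjusted p under 0.05, a threshold at which the share of all genes was not computed. The 5 were Tap1, RT1-CE10, RT1-N2, RT1-M6-1 and Nlrc5, all with lower values in the 85%-labelled libraries. DESeq2 called 1 member at day 3, Nlrc5, and 143 of 17542 genes. Nlrc5 stood at only 0.342 to 0.542 CPM in the 85%-labelled libraries of that day. Without replicate 3 of the 21%-labelled day 3 group RT1-M6-1 was called, at a difference of -2.01 (adjusted p = 0.0376, edgeR's quasi-likelihood test). At day 7, 3 members had an unadjusted p under 0.05, RT1-A2, RT1-T24-1 and RT1-M6-2, again with no share of all genes computed. DESeq2 called 0 members at day 7, against 220 of 16860 genes.

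At day 10, the 85%-labelled lungs had higher levels of 3 nonclassical class I genes, and 0 members were lower, against 2.93% of all genes called, 1.75% higher and 1.18% lower. RT1-S3 stood at 87.6, 75.0 and 106 CPM against 53.3, 41.6 and 36.4 CPM, a difference of 1.03 (SE 0.20, adjusted p = 0.00454). RT1-T24-4 differed by 2.29 (SE 0.60, adjusted p = 0.0344) and RT1-T24-3 by 1.54 (SE 0.43, adjusted p = 0.04999, edgeR's quasi-likelihood test). The groups did not overlap for any of the 3, on the same values as the calls. The share of all genes without overlap was not computed. The 3 genes lie near each other on the plus strand of chromosome 20, from 3176107 to 3233694. RT1-T24-1, further along that strand, did not overlap between the groups and did not pass (0.53, SE 0.53, adjusted p = 0.727 by edgeR's quasi-likelihood test).

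RT1-S3 kept its day 10 call in each fit that left out 1 library, at adjusted p-values of 0.00469 to 0.0478, and lost it when the 6 libraries of the day were fitted alone (adjusted p = 0.192, edgeR's quasi-likelihood test). RT1-T24-4 lost its call without replicate 1 or 3 of the 85%-labelled group (adjusted p = 0.0718 and 0.113) and without replicate 2 or 3 of the 21%-labelled group (0.130 and 0.141). RT1-T24-3 lost its call without any 1 of the 6 libraries except replicate 2 of the 21%-labelled group, at adjusted p-values up to 0.205. The other members were not called: Cd74 had a difference of -0.10 (SE 0.21), B2m of -0.22 (SE 0.21) and RT1-Ba of -2.12 (SE 1.36). Among markers, 4 of 8 of B cells and 5 of 10 of endothelium were higher at day 10, and 8 of 15 immediate early and heat shock genes, which answer to the handling of tissue, were lower. Their part in the class I result was not tested.

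At day 14, 3 members were higher in the 85%-labelled lungs and 0 were lower, against 21.2% of all genes called, 10.5% higher and 10.8% lower. With the 6 libraries of the day alone 8 members were called, 6 higher and 2 lower, and 4585 of all genes. DESeq2 called RT1-DMb (-3.17) and RT1-N2 (-1.79) lower as well. RT1-CE7 stood at 24.7, 21.5 and 25.1 CPM against 12.2, 7.21 and 7.58 CPM, a difference of 1.402 (SE 0.34, adjusted p = 0.00328). It kept the call in each fit that left out 1 library, at adjusted p-values of 0.00315 to 0.0219. RT1-Bb stood at 75.6, 78.1 and 74.1 CPM against 35.9, 15.3 and 17.6 CPM, a difference of 1.73 (SE 0.63, adjusted p = 0.0455). RT1-DOa, the alpha chain of the modulator RT1-DO, differed by 1.73 (SE 0.55, adjusted p = 0.0222, edgeR's quasi-likelihood test), with 1.98, 1.39 and 1.99 CPM against 0.752, 0.424 and 0.428 CPM. The groups of all 3 genes did not overlap, on the same values as the calls. The share of all genes without overlap was not computed. RT1-Bb lost its call without any 1 of the 6 libraries except replicate 1 of the 21%-labelled group, at adjusted p-values up to 0.146, and without the libraries above 6% mitochondrial counts (0.0700). RT1-DOa lost it without replicate 1 or 3 of the 85%-labelled group (0.0598 in either fit) and without replicate 2 or 3 of the 21%-labelled group (0.0767 and 0.0845).

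The other class II genes were not called at day 14. RT1-Ba, the partner of RT1-Bb, did not overlap between the groups, with 62.9, 67.5 and 94.7 CPM against 34.5, 5.76 and 5.56 CPM, and was not called at a difference of 2.30 (SE 1.36, adjusted p = 0.235, edgeR's quasi-likelihood test). RT1-Da had a difference of 0.16 (SE 0.25), Cd74 of -0.01 (SE 0.21) and Ciita of 0.08 (SE 0.24). The summed class II genes stood at 359 ± 30.3 CPM in the 85%-labelled and 198 ± 38.5 CPM in the 21%-labelled libraries (mean ± SD, n = 3), with no test on the sum. On the class I side B2m had a difference of -0.39, Tap1 of -0.39 and Tapbp of -0.37, none of them called. The summed class I genes stood at 339.8 ± 41.8 against 284 ± 38.3 CPM.

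**Figure D4:**
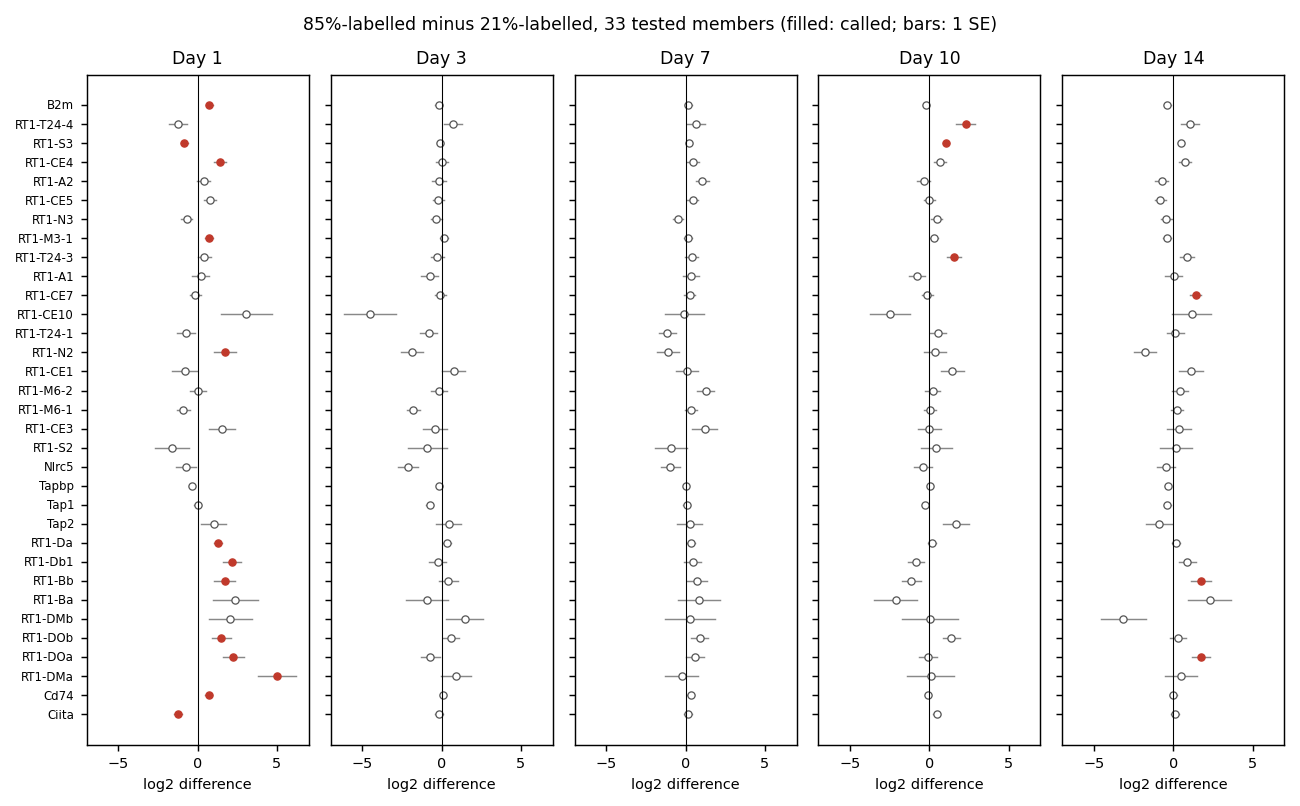
Log2 difference, 85%-labelled minus 21%-labelled (x axis), of the 33 tested members (y axis) at each of the 5 days. Bars are 1 SE and filled points are called by edgeR's quasi-likelihood test, 13 at day 1, 0 at days 3 and 7, and 3 each at days 10 and 14.

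A list of genes for class II loading and costimulation was mostly lower at day 14. Of its 8 genes, which include the costimulators Cd80, Cd86 and Cd40, 7 were lower and 0 higher, with a median difference of -1.03, against 10.8% of all genes called lower and a median of 0.01. Among them were the lysosomal protease Ctss (-1.37, SE 0.20), the thiol reductase Ifi30 (-1.14, SE 0.19), the lysosomal membrane protein Cd63 (-1.16, SE 0.18) and the costimulator Cd80 (-3.21, SE 0.63). Of 7 class I loading genes 4 were lower and 0 higher, the chaperones Calr (-1.24, SE 0.15) and Hspa5 (-1.53, SE 0.19) and the disulphide isomerases Pdia3 (-0.62, SE 0.13) and P4hb (-0.54, SE 0.13). These 4 also serve protein folding in general. Of 4 tested immunoproteasome genes 0 were called at day 14, with a median of -0.45.

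Regulators were mixed at day 14. Among genes that act on MHC promoters, Irf1 was higher (0.56, SE 0.18). Among genes of interferon gamma signalling, the guanylate binding protein Gbp5 (1.31, SE 0.22) and the feedback inhibitor Socs1 (1.48, SE 0.32) were higher and the chemokine Cxcl10 (-1.86, SE 0.45) was lower. Of 21 genes of the type I interferon response 2 were higher and 2 lower, among them Mx2 (1.78, SE 0.36), Ifi47 (-1.20, SE 0.16) and Irf7 (-0.61, SE 0.20). At day 10, Mx2 was also higher (2.002, SE 0.36), and Nfya, a subunit of the Y box factor NF-Y, was higher by 0.53 (SE 0.13).

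Markers of the cells that make class II moved in opposite directions at day 14. All 8 B cell markers were higher, with a sum of 52.7 to 76.5 CPM in the 85%-labelled against 12.5 to 16.3 CPM in the 21%-labelled libraries. Of 15 macrophage markers 12 were lower and 0 higher, with a sum of 400.1 to 439.7 CPM against 819 to 1153 CPM. Of 11 tested dendritic cell markers 4 were higher and 2 lower, and of 9 type 2 cell markers 6 were lower, with a sum of 10743 to 12726 CPM against 21131 to 23834 CPM. General leukocyte markers summed to 447 to 485 CPM against 458 to 528 CPM, with 1 of 8 higher and 1 lower. T cell markers were higher in 4 of 10, endothelial markers in 8 of 10, and 11 of 15 tissue handling genes were lower. No marker of the B cell and type 2 cell lists was at 0 in any library group, and 1 of the macrophage list was at 0 in the 85%-labelled day 14 group. The part of any of these in the levels of RT1-Bb, RT1-CE7 or Cd74 was not tested.

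**Figure D5:**
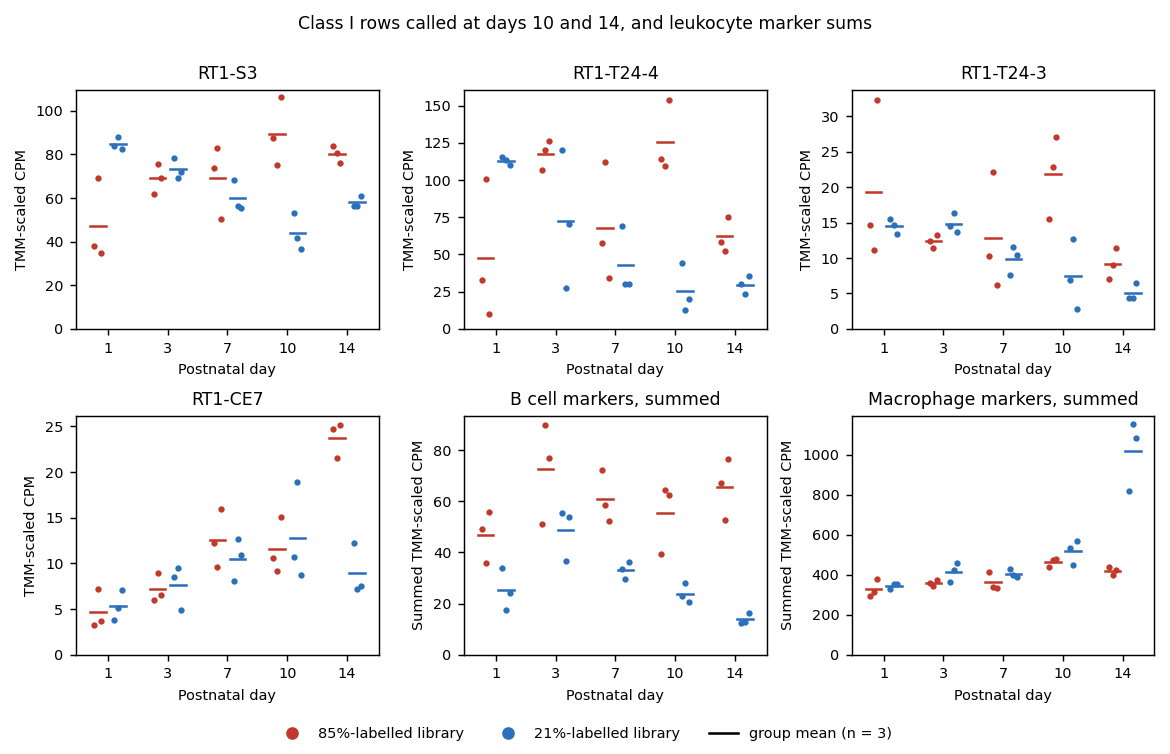
TMM-scaled CPM (y axes, from 0) of RT1-S3, RT1-T24-4, RT1-T24-3 and RT1-CE7, and the summed CPM of the 8 B cell and 15 macrophage markers, against postnatal day (x axis). Points are libraries and bars the means of 3. The 85%-labelled libraries lie above the 21%-labelled ones at days 10 and 14 for RT1-S3, RT1-T24-4 and RT1-T24-3, and at day 14 for RT1-CE7. They lie above at days 1, 7, 10 and 14 for the B cell markers, and below at day 14 for the macrophage markers. At day 1 they lie below for RT1-S3 and RT1-T24-4, and at day 3 for RT1-T24-3.

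Whether the difference between the arms changed between the 5 days was tested directly. An F test by edgeR's quasi-likelihood method called 11 of 33 members, against 37.6% of all genes. RT1-S3 had the smallest adjusted p (0.000561). In the order of the days, its differences were -0.84, -0.08, 0.21, 1.03 and 0.47, and only those of day 1 and day 10 were called. With days 3 to 14 alone, a choice made after the data were seen, 2 members were called, RT1-S3 (adjusted p = 0.0426) and RT1-M6-1 (0.0396), and 2070 of all genes in place of 6613. With mitochondrial share as a covariate they were RT1-S3 (0.0137) and RT1-N3 (0.0306), and 3437 of all genes were called. Fewer than 8 members were called without replicate 1 or 3 of the 85%-labelled or replicate 2 or 3 of the 21%-labelled day 1 group, without replicate 1 of the 85%-labelled day 3 or day 10 group, and without replicate 1 or 3 of the 85%-labelled or replicate 2 or 3 of the 21%-labelled day 14 group, with 4 to 7 calls. In those fits 4715 to 6216 of all genes were called. RT1-S3 was the only member called by the chosen test and in each of the alternatives that kept all 30 libraries. The test of days 3 to 14 is among these, since it left day 1 out of the contrasts and not out of the fit.

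Over age, 20 of 33 members changed between days in the 21%-labelled arm by the F test, a share close to the 56.3% of all genes. In this arm B2m had group means of 352, 721, 416, 657 and 584 CPM in the order of the days, and RT1-Da of 47.9, 133, 87.9, 91.6 and 113 CPM. For both genes day 1 was the lowest and day 3 the highest mean. From day 3 to day 14 in the 21%-labelled arm, 3 members changed, against 34.5% of all genes (16.4% higher, 18.1% lower): Ciita rose (0.69, SE 0.25), and RT1-CE4 (-1.48, SE 0.40) and RT1-T24-3 (-1.55, SE 0.44) fell. Ciita lost the call without replicate 3 at day 3 (0.45) or replicate 2 at day 14 (0.51), and without the libraries above 6% mitochondrial counts (0.47).

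In the 85%-labelled arm 8 members changed from day 3 to day 14, against 44.8% of all genes, of which 22.1% rose and 22.7% fell. RT1-CE7 (1.73, SE 0.34), RT1-M6-1 (2.72, SE 0.43), RT1-CE10 (5.70, SE 1.65), RT1-A1 (1.47, SE 0.53), RT1-DOa (2.19, SE 0.57), Ciita (0.95, SE 0.25) and Nlrc5 (1.85, SE 0.63) rose. RT1-DMb fell by 5.40 on the log2 scale (SE 1.48), and without replicate 1 of day 3, which alone held 35.1 CPM, the change was -1.02 and not called. RT1-A1 lost the call without any 1 of the day 3 libraries or replicate 3 of day 14, at adjusted p-values of 0.0508 to 0.0866, and Nlrc5 without replicate 1 of day 3 (0.0597). The difference between these arm changes was called for 3 members, against 12.5% of all genes (5.94% higher, 6.53% lower): RT1-CE7 (1.49, SE 0.48), RT1-M6-1 (2.01, SE 0.57) and RT1-DOa (2.44, SE 0.80). All 3 lost their calls without replicate 1 or 3 of the 85%-labelled or replicate 1 or 2 of the 21%-labelled day 3 group, at adjusted p-values up to 0.105. RT1-CE7 and RT1-DOa also lost theirs without any 1 of the day 14 libraries except replicate 1 of the 21%-labelled group, and RT1-DOa without replicate 2 of the 85%-labelled day 3 group. These late comparisons share libraries with each other and with the day 14 comparison.

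The authors' deposited table holds its own comparisons, of 21% over 85%, with a test not given in the sources used here. In the authors' deposited table, 2 members passed an adjusted p under 0.05 at day 10, RT1-S3 and RT1-T24-4, both higher in the 85%-labelled group. At day 14 the authors' deposited table had 8 members higher in the 85%-labelled and 7 higher in the 21%-labelled group, among the latter B2m, Tap1, Tapbp and RT1-A2. At day 1 it had 9 and 2, at day 3 it had 0 and 2, and at day 7 it had 0 and 1, in the authors' deposited table. These counts rest on another test and on the adjusted p alone, without the size limit of the calls made here. The numbers are thus not directly comparable. At day 14, B2m, Tap1, Tapbp and RT1-S3 passed with sizes below that limit in the authors' deposited table. Other members passed there with sizes above that limit and were not called here. Of these, RT1-A2, RT1-CE5, RT1-N2 and RT1-DMb were higher in the 21%-labelled group. RT1-CE4, RT1-T24-3, RT1-T24-4 and RT1-Ba were higher in the 85%-labelled group. The reason was not tested. The share of all genes passing there was not computed.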

How the data were processed

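Lung mRNA of neonatal rats was isolated on RNeasy columns and turned into cDNA libraries by a SMARTer kit, per the labels' protocols. The authors deposited whole-number counts per gene for 35224 genes, FPKM values, log2 fold changes and p-values of their own comparisons, per the file headers. Aligner, counter, annotation and the handling of shared reads were not given in the sources used here. Of the genome builds, GRCm38 and mm10 of mouse appear in the submitters' processing notes, but 32883 gene IDs are rat Ensembl IDs.

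Groups came from the oxygen and day labels. Counts were tested with edgeR 4.0.16 in R 4.3.3: filterByExpr left 17571 genes, libraries were scaled by TMM, and 1 robust quasi-likelihood fit with a mean per group (20 residual degrees of freedom) gave all comparisons. Benjamini-Hochberg adjustment ran over these genes. The SE is the absolute log2 difference divided by the root of F, an approximation. Alternatives were DESeq2 1.42.0, RLE size factors, no filter, mitochondrial share as a covariate, fits without the libraries above 6% mitochondrial counts, the day's libraries alone, a replicate block, and each library left out in turn. The days 3 to 14 test, run on the fit of all 30 libraries, and a gene length covariate were added after the data were seen. The steps were tested on simulated counts. Deposited FPKM served only to order genes.

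Members and gene lists were chosen with earlier results of these data known. Values per library were given for the 7 genes named in full and for RT1 genes whose mean log2 CPM reached 3, and up to 4 genes of a list by smallest p. Other RT1 genes named without having been called in an arm comparison were chosen after their values were seen. No 2 libraries of a group agreed within sampling noise. Some values of the regulator lists are not reported here.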

Additional observations from a re-analysis of the deposited data

Results flagged for a closer look

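For 11 members the difference between the arms differed between the 5 days by edgeR's quasi-likelihood F test. The adjusted p was 0.000561 for RT1-S3, 0.0071 for Ciita, 0.0194 for RT1-M6-1, 0.0204 for RT1-N2, 0.0242 for RT1-T24-4, 0.0273 for RT1-Db1, 0.0298 for B2m, 0.0328 for RT1-DOa, 0.0409 for RT1-CE7, 0.0422 for RT1-CE10 and 0.0457 for RT1-Da. The arm difference at day 14 differed from that at day 3 for 3 members by edgeR's quasi-likelihood test, at adjusted p-values of 0.021 for RT1-M6-1, 0.04 for RT1-CE7 and 0.0464 for RT1-DOa.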

How the results depend on the processing

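The counts of called members moved most at day 1, where 13 became 0 with mitochondrial share as a covariate, 0 without the libraries above 6% mitochondrial counts, 2 with a gene length covariate and 6 with the libraries of the day alone. In these fits 28, 236, 1186 and 4350 of all 17571 genes were called, against 7278. At day 3, DESeq2 called 1 member and 143 of 17542 genes. At day 10, 3 became 1 without the filter on low counts, 1 with the replicate block and 0 with the day alone. In the same order, calls over all genes went from 515 to 371, 341 and 9. At day 14, 3 became 5 with the mitochondrial covariate, 8 with the day alone and 5 with DESeq2. Calls over all genes went from 3728 to 4512, 4585 and 4053. For the change between days, 11 became 2 with days 3 to 14 only, 6 without the filter and 2 with the mitochondrial covariate. Calls over all genes went from 6613 to 2070, 5430 and 3437. From day 3 to day 14 in the 85%-labelled arm, 8 became 4 with the mitochondrial covariate, and calls over all genes went from 7878 to 3346. The difference between the arm changes went from 3 to 1 without the filter and to 5 with DESeq2. Over all genes it went from 2191 to 1772 and 2658. The cause was not tested. Leaving out 1 library at a time gave 5 to 16 calls at day 1, 0 to 1 at day 3, 0 to 0 at day 7, 1 to 2 at day 10 and 1 to 4 at day 14, and 4 to 15 for the change between days. It gave 15 to 21 calls for age in the 21%-labelled arm. For day 14 against day 3 it gave 6 to 8 and 2 to 4 in the 85%- and 21%-labelled arms, and 0 to 4 for their difference. Over all genes these fits gave 5122 to 8646 calls at day 1, 28 to 99 at day 3 and 6 to 849 at day 7. They gave 175 to 537 at day 10 and 2924 to 3494 at day 14. For the change between days they gave 4715 to 9180 calls, and 7609 to 10426 for age in the 21%-labelled arm. For day 14 against day 3 they gave 6510 to 7335 and 3830 to 6374 in the 85%- and 21%-labelled arms. For the difference between these changes they gave 1500 to 2655. Signs turned in 3 cases at day 1: RT1-CE4 with the mitochondrial covariate (-0.53), and RT1-DOa (-0.27) and RT1-N2 (-0.18) without the libraries above 6%. Whether the replicate numbers pair the samples is not given by the labels. Over the 5 days same-numbered libraries correlated at -0.26 to 0.48, with 8 of 15 pairs over 0.1. At day 1 they correlated at 0.164, 0.126 and 0.008. The values were -0.016, 0.475 and -0.258 at day 10 and -0.057, -0.148 and -0.251 at day 14. At day 3 all 3 pairs were over 0.1 (0.138, 0.107 and 0.303), and the replicate block called 0 members there as well. At days 3 and 7 every library correlated best with its own number, a hint from the data. At day 1 the replicate block added RT1-T24-4 (-1.78) and RT1-N3 (-1.04) to the calls and ended that of RT1-N2 (1.36), and it ended that of RT1-CE7 in the difference between the arm changes (adjusted p = 0.0527, edgeR). Summing the counts of a class moved its day 1 difference from 2.11 (median gene) to 1.51 for class II and from 0.10 to -0.26 for class I, at day 10 from 0.30 to 0.62 for class I and from -0.02 to -0.50 for class II, and turned that of class I at day 3 from -0.23 to 0.04. The order of the 38 genes by level was the same with the deposited FPKM. These rest on the same counts and lengths, so the order is no separate check. With 3 libraries a group, the spread of the RT1 genes limits what can be called.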
